A study of Mus musculus with 6 samples.

Results

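The genes described here are 10 collagen chains of the corneal stroma, chosen by name and not by their values: the fibril-forming chains Col1a1, Col1a2, Col3a1, Col5a1 and Col5a2, the type VI chains Col6a1, Col6a2 and Col6a3, and the fibril-associated chains Col12a1 and Col14a1. They are 10 of the 57180 gene identifiers in the files, and all 10 were among the 17639 genes whose counts were high enough to test. RNA-seq was carried out on primary corneal endothelial cells of mice, with no drug treatment. All 6 libraries came from mice homozygous for the Q455K allele of Col8a2, a collagen of Descemet membrane, which is used to model Fuchs dystrophy of the endothelium. The series holds 3 libraries of this genotype (Col8a2Q455K/Q455K, the Col8a2 group) and 3 of the same genotype labelled with a heterozygous Tcf4 knockout as well (Col8a2Q455K/Q455K/Tcf4+/-, the Tcf4+/- group). The labels give no age and no sex, do not say how the Tcf4 allele was made or in which cells it acts, and do not say whether a library is 1 animal or a pool. The p-values therefore measure the spread between these libraries, part of which may be technical. The comparison asks what the loss of 1 Tcf4 allele changes in the cells of this model.

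Collagens of types I, III and V form the striated fibrils that make up most of the corneal stroma, the clear connective tissue in front of the endothelium. Type V chains set the start and the width of type I fibrils, type VI chains assemble into beaded filaments around cells and between fibrils, and types XII and XIV sit on the surface of fibrils. Keratocytes, the fibroblasts of the stroma, are the main makers of these chains in the cornea, while the endothelium is known for the type VIII and type IV chains of Descemet membrane, the sheet between both tissues.

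Total estimated counts ran from 30344161 to 54265479 per library. Tcf4, the targeted gene, stood at 313, 470 and 430 CPM (counts scaled to library size and TMM factor) in the Col8a2 libraries and at 440, 599 and 373 CPM in those labelled Tcf4+/- (log2 fold change 0.22, SE 0.33), so the transcript level of the whole gene did not show the label. How the allele was made is not given, so this level cannot tell whether the label holds. The groups are named by their labels only. All 13 markers of corneal endothelium on the list used here were detected, with Col8a2 at 2300 to 6210 CPM and Slc4a11, a membrane transporter of these cells, at 2280 to 6830 CPM. Stromal, epithelial and lens transcripts were present too. The 11 keratocyte markers summed to between 8151 and 15730 CPM in the Col8a2 group and between 11380 and 16240 CPM in the Tcf4+/- group, and the 9 epithelial markers to 3121 to 6739 and 2354 to 6920 CPM. Of 15 lens markers 12 were tested, and these summed to 33.9 to 628 CPM in the Col8a2 group and 91.6 to 11170 CPM in the Tcf4+/- group. In bulk RNA, fewer cells of a type and less RNA per cell cannot be told apart.

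Upstream DNA of 1 type I, 1 type III and 1 type VI chain is shown first, because Tcf4 encodes an E protein, a factor that binds the E-box CANNTG. RefSeq's promoter table (build GRCm38.p6) held 7 start sites of 6 members, Col1a2, Col3a1, Col5a1, Col6a1, Col6a2 and Col6a3. The other members, Col1a1, Col5a2, Col12a1 and Col14a1, were not matched. The 250 bases before the start are given 5′ to 3′ on the strand of the gene for the type I chain at chr6:4505368-4505617 (plus strand), the type III chain at chr1:45311288-45311537 (plus strand) and the type VI chain at chr10:76726045-76726294 (minus strand). Capitals mark CCAAT in Col1a2 and CANNTG in Col3a1 and Col6a1.
Col1a2: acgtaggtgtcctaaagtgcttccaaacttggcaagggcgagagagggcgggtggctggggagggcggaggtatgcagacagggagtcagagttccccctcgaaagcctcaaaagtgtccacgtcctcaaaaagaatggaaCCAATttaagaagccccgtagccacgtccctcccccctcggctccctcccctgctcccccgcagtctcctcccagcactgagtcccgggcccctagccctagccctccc
Col3a1: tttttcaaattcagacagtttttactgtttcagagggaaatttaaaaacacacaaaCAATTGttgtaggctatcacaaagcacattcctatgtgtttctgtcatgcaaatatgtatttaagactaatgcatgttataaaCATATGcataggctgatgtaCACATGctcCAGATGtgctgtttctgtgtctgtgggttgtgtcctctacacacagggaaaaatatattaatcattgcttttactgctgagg
Col6a1: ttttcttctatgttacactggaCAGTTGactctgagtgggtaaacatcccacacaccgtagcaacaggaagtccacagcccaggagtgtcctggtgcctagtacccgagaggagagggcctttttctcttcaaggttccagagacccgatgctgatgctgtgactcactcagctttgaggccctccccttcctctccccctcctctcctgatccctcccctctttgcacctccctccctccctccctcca
On both strands, CANNTG was found in 2 of the 7 windows, with 4 matches upstream of Col3a1 and 1 upstream of Col6a1, whereas 66.2% of 32851 promoter windows of the same length held a match. The versions CAGGTG and CAGCTG, which are contained in CANNTG, were found in 0 of the 7 windows and in 17.2% and 13.0% of all windows. CCAAT stood in 1 of the 7 windows (Col1a2) and in 33.8% of all, TATAAA in 1 (Col3a1) and in 12.4%, and GGGCGG in 4 and in 32.7%. These are matches of letters, and a window without a match says only that these letters are not in it.

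The members spanned a wide range of levels. On the TPM scale, which corrects for length, Col12a1 was the highest at 751 ± 301 (mean ± SD over all 6 libraries), above Col1a2 at 339 ± 141 and Col1a1 at 257 ± 153. Col12a1 lay above Col1a2 in 6 of 6 libraries, and Col1a2 above Col1a1 in 5 of 6. This order depends on the deposited effective lengths, 2749 to 3795 bases for Col12a1 and 4889 to 5131 bases for Col1a2. In CPM, with no length correction, Col12a1 was below Col1a2 and Col1a1 in Tcf4+/- replicate 3, at 1139 against 1311 and 1480. The type VI chains Col6a3, Col6a1 and Col6a2 followed at 117 ± 52.1, 103 ± 46.0 and 88.9 ± 37.6 TPM, then Col5a1 at 79.8 ± 19.6 TPM. Col6a3 was above Col6a1 in 4 of 6 libraries and Col6a2 above Col5a1 in 4 of 6, so these neighbours were not separated beyond their spread. Col5a2, Col3a1 and Col14a1 were the lowest, at 15.97 ± 7.45, 9.98 ± 6.73 and 4.22 ± 2.01 TPM, in the same order in 6 of 6 libraries. Together the 10 genes took 0.563% to 1.23% of all counts. The pair of Descemet type VIII chains took 0.243% to 0.751%. In Tcf4+/- replicates 2 and 3 mitochondrial tRNA genes held 15.6% and 15.8% of all TPM, against 0% elsewhere, which lowers the TPM of other genes there. Comparisons of the level of a gene between libraries are therefore made on the CPM scale unless TPM is named. Ratios of chains within a library use TPM.

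No member differed between the groups by the test. Of the 10, 0 passed edgeR's quasi-likelihood test at a Benjamini-Hochberg adjusted p of 0.05, where the share of all genes called was 0%. None had an unadjusted p under 0.05, where 2.42% of all 17639 genes did (427 genes), 1.42% with a higher fitted level in the Tcf4+/- group. DESeq2 called 33 genes (0.189% of those with an adjusted p) and limma voom 0, in each case 0 of the members, and with DESeq2 only Col1a1 had an unadjusted p under 0.05 (0.0478). For each of the 10 genes the libraries of the groups overlapped, whereas 8.1% of all genes had ranges that did not overlap, 4.53% with the Tcf4+/- group higher and 3.57% with it lower. The fitted log2 fold change was positive for 8 of the 10, with a median of 0.36, beside 50.1% of all genes and a median of 0.001. A fitted log2 fold change of at least 1 in size was found for 0 of the 10 and for 17.1% of all genes. The median standard error of a member was 0.466 on the log2 scale, and a 2-fold higher level lay inside the 95% interval of 7 of the 10.

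**Figure D1:**
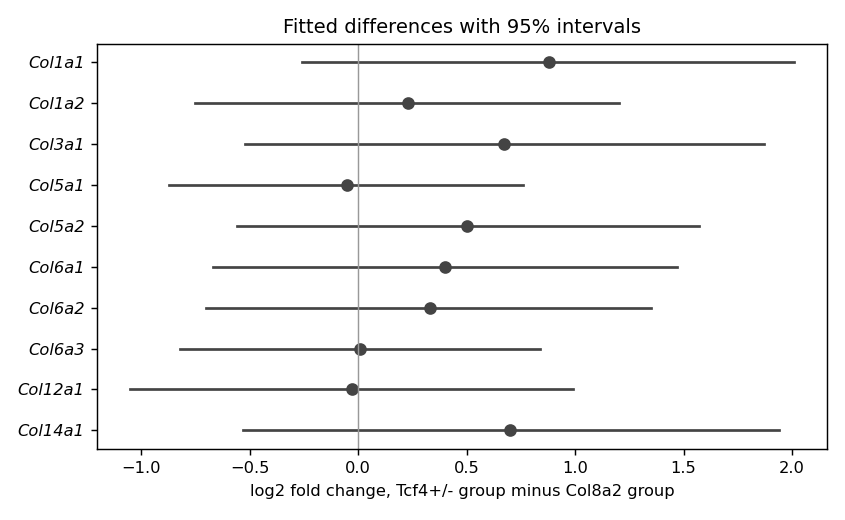
Fitted log2 fold change of each collagen chain (x axis, Tcf4+/- group minus Col8a2 group, log2 units) with its 95% interval from edgeR's quasi-likelihood fit. The line at 0 lies inside all 10 intervals, and the points run from -0.05 for Col5a1 to 0.88 for Col1a1.

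The sign of that median rested on Tcf4+/- replicate 2. This was the highest of the 6 libraries for 9 of the 10 members, where 13.8% of all genes tested had their highest value in it. Without it the median was -0.11 with 4 members fitted higher, and without Tcf4+/- replicates 2 and 3 (the libraries with the most lens transcripts) it was -0.15 with 3 fitted higher. Col8a2 replicate 3 was the lowest library for 6 members, against 17.3% of all genes, and without it the median was 0.10. On the TPM scale, where the median of all genes tested was -0.19, the median of the members was 0.02 and 5 were fitted higher.

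**Figure D2:**
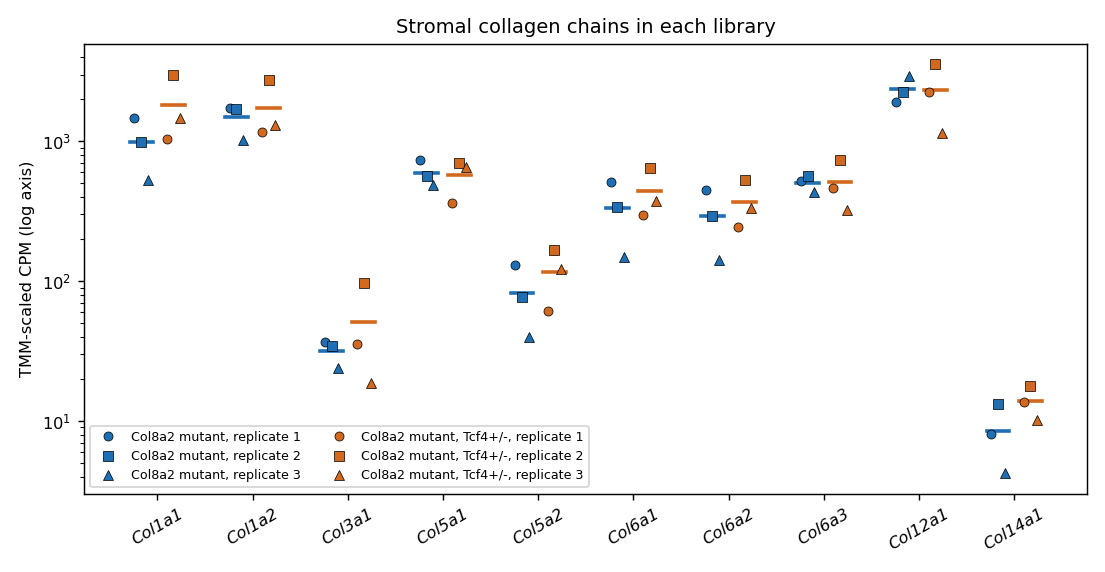
TMM-scaled CPM (y axis, log scale) of each collagen chain in every library, with circles, squares and triangles for replicates 1, 2 and 3 and a bar at the mean of 3 libraries. The squares of the Tcf4+/- group are the highest value of every gene but Col5a1, and the groups overlap for all 10.

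The type I chains form the bulk of the stromal fibril. Col1a1 (ENSMUSG00000001506), the alpha 1 chain, stood at 1463, 995 and 533 CPM in Col8a2 replicates 1 to 3 and at 1046, 2971 and 1480 CPM in Tcf4+/- replicates 1 to 3. Tcf4+/- replicate 2 was far above the next library, while Tcf4+/- replicate 1 lay inside the range of the Col8a2 group. The log2 fold change was 0.88 (SE 0.51, 95% interval -0.26 to 2.01, edgeR adjusted p = 0.99988, as for all 10 members). It was 0.36 without Tcf4+/- replicate 2 and 0.06 without Tcf4+/- replicates 2 and 3, so its size rested on those libraries. Col1a2 (ENSMUSG00000029661), the alpha 2 chain, stood at 1730, 1703 and 1025 CPM against 1175, 2726 and 1311 CPM. Of the Tcf4+/- libraries, replicate 2 alone was above the Col8a2 libraries, and the other Tcf4+/- libraries were below Col8a2 replicates 1 and 2. Its log2 fold change was 0.23 with a standard error of 0.43, and it was -0.24 without Tcf4+/- replicate 2.

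Type III and type V chains join type I in mixed fibrils. Col3a1 (ENSMUSG00000026043) stood at 37.0, 34.5 and 24.0 CPM in the Col8a2 libraries and at 35.5, 97.8 and 18.7 CPM in the Tcf4+/- libraries, which thus held both the highest and the lowest value. Its log2 fold change was 0.67 with a standard error of 0.53, and -0.22 without Tcf4+/- replicate 2. Col5a1 (ENSMUSG00000026837), which governs the start of fibrils, was among the steadiest members, at 730, 569 and 487 CPM against 362, 705 and 658 CPM. The highest over the lowest library was 2.02 for Col5a1, where the median was 3.97 for the 10 members and 2.32 for the 10057 genes of at least 10 CPM. The log2 fold change of Col5a1 was -0.05 with a 95% interval from -0.87 to 0.76. Col5a2 (ENSMUSG00000026042), its partner chain, stood at 130, 77.1 and 40.1 CPM against 61.1, 168 and 121 CPM, a log2 fold change of 0.50 with a standard error of 0.47.

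Type VI chains build the beaded filaments around keratocytes, each from an alpha 1, an alpha 2 and an alpha 3 chain. Col6a1 (ENSMUSG00000001119) stood at 510, 340 and 148 CPM in the Col8a2 libraries and at 299, 644 and 373 CPM in the Tcf4+/- libraries. Col6a2 (ENSMUSG00000020241) stood at 448, 293 and 141 CPM against 246, 530 and 332 CPM. The order of the 6 libraries was the same for both genes, from Col8a2 replicate 3 up to Tcf4+/- replicate 2. Their log2 fold changes were 0.40 and 0.33 with standard errors of 0.48 and 0.46. Col6a3 (ENSMUSG00000048126), the longest chain, followed another order, at 521, 565 and 434 CPM against 464, 741 and 325 CPM. Its lowest library was Tcf4+/- replicate 3, in the middle of the order for Col6a1 and Col6a2, and its log2 fold change was 0.01 with a 95% interval from -0.82 to 0.84.

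The fibril-associated chains were the highest and the lowest members. Col12a1 (ENSMUSG00000032332), which links fibrils to the matrix around them, stood at 1916, 2242 and 2931 CPM in the Col8a2 libraries and at 2259, 3552 and 1139 CPM in the Tcf4+/- libraries. Col8a2 replicate 3, the lowest library for Col1a1, was here second only to Tcf4+/- replicate 2, and Tcf4+/- replicate 3 was the lowest. For Col12a1 the log2 fold change was -0.03 (SE 0.46, 95% interval -1.05 to 0.99). Col14a1 (ENSMUSG00000022371) stood at 8.09, 13.2 and 4.23 CPM against 13.6, 17.8 and 10.1 CPM, resting on 214 to 977 counts per library. Tcf4+/- replicates 1 and 2 were above all Col8a2 libraries and replicate 3 was not, and the log2 fold change was 0.70 with a standard error of 0.55.

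The members did not vary as 1 block. Over the 45 pairs of members, Pearson's r of log2 CPM across the 6 libraries ran from -0.183 to 0.996 with a median of 0.668, while the median r of the members with the other 10047 genes of at least 10 CPM was -0.043. Of the member pairs 28.9% had an r over 0.8, and 3.0% of the pairs of a member with another gene. The 6 libraries differed in depth and in the levels of cell markers, so r describes only how genes varied together across them. The median r was 0.700 within groups (deviations from the group means) and fell to 0.50 without Tcf4+/- replicate 2.

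The tightest pair was Col6a1 and Col6a2, neighbours on chromosome 10 with no protein-coding gene between them in RefSeq. Their r was 0.996 (exact permutation p = 0.00139, 0.0208 adjusted over 45 pairs), rho was 1 (exact p = 0.00278, adjusted 0.0417) and r was 0.995 without the 2 libraries farthest from the median. Col5a2 joined them, with r of 0.955 to Col6a1 and 0.972 to Col6a2 (exact permutation p = 0.00139 each, adjusted 0.0208, with rho of 1 and adjusted p of 0.0417), and 0.869 and 0.910 without the farthest 2. These 3 pairs were the only ones of 45 with an adjusted p under 0.05. Col1a1 had r of 0.946, 0.949 and 0.943 with Col5a2, Col6a1 and Col6a2 (exact permutation p = 0.0111 each, adjusted 0.0833; rho 0.886 each, exact p = 0.0333, adjusted 0.125), and 0.931, 0.755 and 0.785 without the farthest 2.

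Chains of 1 molecule did not all have an r as high as that of Col6a1 with Col6a2. Col1a1 with Col1a2 gave an r of 0.861 (exact permutation p = 0.0319, adjusted 0.131) and a rho of 0.714 (exact p = 0.136, adjusted 0.360), but r was 0.099 without Col8a2 replicate 3 and Tcf4+/- replicate 2, so it rests on those libraries. Col6a3 with Col6a1 gave 0.511 (exact permutation p = 0.282, adjusted 0.412; rho 0.543, exact p = 0.297, adjusted 0.495), and 0.110 without the same libraries. Within groups r was 0.945 for Col1a1 with Col1a2 and 0.588 for Col6a3 with Col6a1. Col6a3 was closest to Col3a1, at 0.934 (exact permutation p = 0.0139, adjusted 0.0893; rho 0.829, exact p = 0.0583, adjusted 0.188), and 0.688 without Tcf4+/- replicates 2 and 3. Col3a1 and Col5a2 are neighbours too, on chromosome 1, yet their r was 0.514 (exact permutation p = 0.303, adjusted 0.412; rho 0.600, exact p = 0.242, adjusted 0.494; 0.825 without Tcf4+/- replicates 2 and 3). Col12a1 stood apart, with a median r of 0.026 to the other 9 members.

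**Figure D3:**
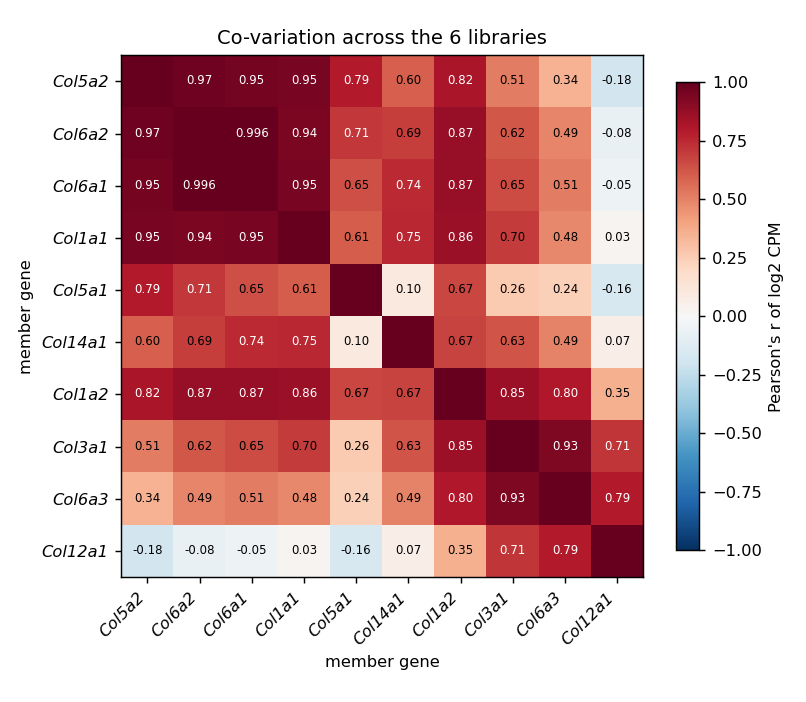
Pearson's r of log2 CPM across the 6 libraries for each pair of the 10 collagen chains (both axes), from blue at -1 to red at 1. Col5a2, Col6a2, Col6a1 and Col1a1 form a block of r from 0.943 to 0.996, and Col12a1 has its highest values with Col6a3 (0.790) and Col3a1 (0.714). These values of Col12a1 rest on Tcf4+/- replicates 2 and 3, without which they are -0.697 and -0.948. Their exact permutation p adjusted over 45 pairs is 0.246 and 0.28, with rho of 0.486 each.

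Levels of the members were also set against markers of the cells. Across the libraries the mean log2 CPM of the 10 members gave an r of 0.877 with the mean of the keratocyte markers (exact permutation p = 0.0208, adjusted over 4 lists 0.0832; rho 0.829, exact p = 0.0583, adjusted 0.233), and 0.491 without Col8a2 replicate 3 and Tcf4+/- replicate 2, so the relation rests on those libraries. With the endothelium, epithelium and lens lists r was 0.135, -0.257 and 0.357 (exact permutation p = 0.772, 0.65 and 0.51, each adjusted 0.772; rho 0.029, -0.200 and 0.314, exact p = 1, 0.714 and 0.564, adjusted 1, 0.952 and 0.952). Without the same libraries these were 0.082, 0.194 and -0.199.

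Gene by gene, each of the 10 members was set against each of the 10 marker lists, a family of 100 relations chosen after the values were seen. None had an adjusted p under 0.05 over the 100 (smallest 0.0694 for r and 0.139 for rho), and 21 had an unadjusted exact permutation p under 0.05, so the values that follow describe these 6 libraries. Col5a2, Col6a1, Col6a2 and Col1a1 had r of 0.98, 0.97, 0.97 and 0.96 with the keratocyte list (exact permutation p = 0.00417, 0.00278, 0.00278 and 0.00833, adjusted 0.0694, 0.0694, 0.0694 and 0.104; rho 0.94 each, exact p = 0.0167, adjusted 0.167). Without the 2 farthest libraries these were 0.94, 0.87, 0.88 and 0.97. Over all 6 libraries the same chains were about as close to the vessel and mural cell list, at 0.89, 0.98, 0.96 and 0.94 (exact permutation p = 0.00556, 0.00417, 0.00278 and 0.0278, adjusted 0.0794, 0.0694, 0.0694 and 0.194), with rho of 0.94 for the first 3 and 0.71 for Col1a1. Without the 2 farthest libraries the r with this list was 0.65, 0.94, 0.90 and 0.51, so the values of Col5a2 and Col1a1 rest in part on those libraries. The 4 chains also had r of 0.80 to 0.91 with the melanocyte list, 0.80 to 0.87 with the Schwann cell list and 0.83 to 0.85 with the outflow tissue and sclera list. Without the 2 farthest libraries these were -0.01 to 0.59, 0.63 to 0.94 and 0.12 to 0.44. These lists themselves went together. Between the keratocyte list and the vessel, melanocyte, Schwann cell, and outflow tissue and sclera lists, r was 0.92, 0.79, 0.89 and 0.79. These libraries therefore do not tell which list a chain was closest to. With the endothelium list the 4 chains had r from -0.34 to -0.12 (exact permutation p from 0.522 to 0.801), and from -0.83 to -0.38 without the 2 farthest libraries.

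For Col12a1, r with the endothelium list was 0.98 (exact permutation p = 0.00139, the smallest that 6 libraries can give, adjusted 0.0694) and rho was 1 (exact p = 0.00278, adjusted 0.139). It was 0.94 without Tcf4+/- replicates 2 and 3, and 0.408% of other genes reached it. With the keratocyte list Col12a1 gave -0.15 (exact permutation p = 0.785, rho -0.03), and -0.98 without Tcf4+/- replicates 2 and 3. With each of the 6 libraries omitted once, the r of Col12a1 with the endothelium list lay between 0.93 and 0.99, and that of Col1a1, Col5a2 and Col6a1 with the keratocyte list between 0.92 and 1. Among the other members, Col1a2 had its highest r with the melanocyte list, at 0.93, above 0.86 with the vessel and 0.79 with the keratocyte list. Col3a1 had 0.70 with the vessel, 0.69 with the melanocyte and 0.62 with the endothelium list. Without Tcf4+/- replicates 2 and 3 these were 0.99, 0.83 and -0.78. Col14a1 had its highest r with the vessel list (0.86), Col6a3 with the endothelium list (0.72) and Col5a1 with the keratocyte list (0.69). Without the 2 libraries farthest from each gene's median these were -0.82, -0.69 and 0.93, so the values of Col14a1 and Col6a3 rest on those libraries. By rho another list was higher for each of Col14a1, Col6a3 and Col5a1, for Col6a3 the melanocyte list (0.83, against 0.49 with the endothelium list). Whether the correlations of 2 members, or with 2 lists, differ from each other was not tested, and neither was the part of cell makeup in any difference between groups.

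**Figure D4:**
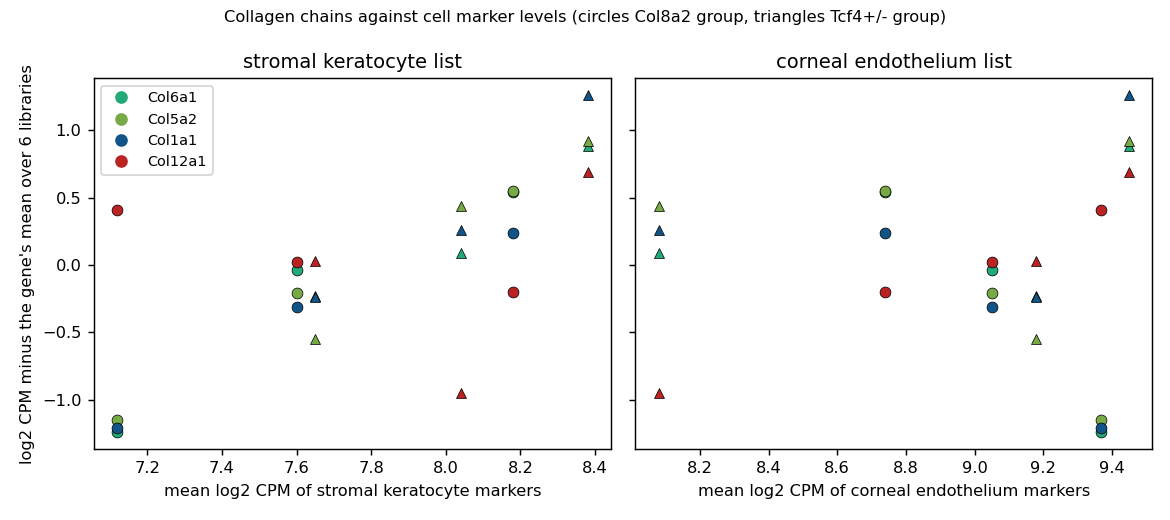
log2 CPM of 4 collagen chains, each minus its mean over the 6 libraries (y axis), against the mean log2 CPM of 11 keratocyte markers (left) and of 13 corneal endothelium markers (right). Col1a1, Col5a2 and Col6a1 climb with the keratocyte level and Col12a1 with the endothelium level, in libraries of both groups, with no adjusted p under 0.05 over 100 relations.

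Ratios of chains within a library do not depend on its depth. For Col1a1 to Col1a2 in TPM it was 0.752, 0.520 and 0.451 in Col8a2 replicates 1 to 3, against 0.785, 0.960 and 1.01 in the Tcf4+/- replicates. Every Tcf4+/- library was thus above every Col8a2 library, by a narrow margin between Tcf4+/- replicate 1 and Col8a2 replicate 1. The mean log2 ratio was -0.83 ± 0.38 and -0.13 ± 0.19 (SD, n = 3 each), a difference of 0.70 with an exact two-sided permutation p of 0.1, the smallest that 3 against 3 can give, and 0.600 after adjustment over the 12 ratios computed. Among all pairs of genes of at least 10 CPM, 6.92% had ratios that did not overlap between the groups. With each library omitted once the difference was 0.54 to 0.91, and it was 0.70 without length correction.

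The other ratios overlapped between the groups, apart from 1 of the 6 that were added after the values were seen. Col5a1 exceeded Col5a2 by 4.73, 6.42 and 10 times in the Col8a2 libraries and by 5.14, 3.47 and 4.37 times in the Tcf4+/- libraries (exact permutation p = 0.2). Col6a1 to Col6a2 was the steadiest, between 1.04 and 1.21 in all 6 libraries. Col6a3 to Col6a1 was the least steady of the type VI ratios, at 0.802, 1.5 and 2.39 against 1.52, 1.02 and 0.410 (exact permutation p = 0.5). It was highest in Col8a2 replicate 3 and lowest in Tcf4+/- replicate 3, and its difference of -0.72 on the log2 scale was -0.18 without the latter. In CPM, with no length correction, the ratio in Tcf4+/- replicate 3 was 0.871, the highest over the lowest library was 3.37 in place of 5.83, and the log2 difference was -0.56.

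Col3a1 to Col1a1 was 0.0349 to 0.0527 in the Col8a2 libraries and 0.0460, 0.0403 and 0.0136 in the Tcf4+/- libraries (exact permutation p = 0.5), and its log2 difference of -0.62 was -0.06 without Tcf4+/- replicate 3. Summed type VI to summed type I chains was 0.424 to 0.614 in all libraries (exact permutation p = 0.4). Among the added ratios, Col12a1 to Col8a2 ran only from 0.541 to 0.775, while Col12a1 to Col1a1 ran from 1.61 to 8.16. In CPM, with no length correction, they ran from 0.456 to 0.632 and from 0.769 to 5.49. Col6a1 to Lum, the gene of the stromal proteoglycan lumican, did not overlap in TPM, at 0.259, 0.260 and 0.279 against 0.234, 0.215 and 0.150 (exact permutation p = 0.1, adjusted 0.600).

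**Figure D5:**
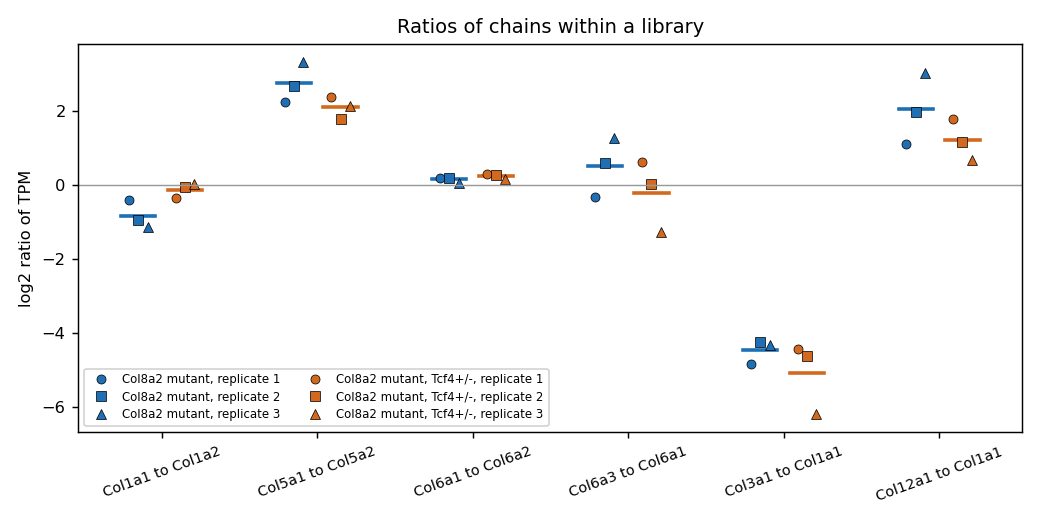
log2 ratio of the TPM of collagen chains within each library (y axis), with circles, squares and triangles for replicates 1, 2 and 3 and a bar at the mean of 3. Col1a1 to Col1a2 is lower in the 3 Col8a2 libraries (mean -0.83) than in the 3 Tcf4+/- libraries (mean -0.13), and the other 5 ratios overlap.

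Other collagens did not pass the test either. Of 11 further fibrillar and FACIT chains tested, 0 passed edgeR's test and 1 had an unadjusted p under 0.05, with 5 fitted higher and 6 lower and a median log2 fold change of -0.06. Col16a1, a fibril-associated chain, was at 97.7, 120 and 87.7 CPM against 115, 293 and 119 CPM, again highest in Tcf4+/- replicate 2. Col9a3 was at 72.9, 73.3 and 27.1 CPM against 21.3, 36.4 and 7.80 CPM, with an unadjusted edgeR p of 0.033. The further type VI chains Col6a5 and Col6a6 stayed under 4 CPM in every library. Of 12 Descemet and basement membrane chains 0 passed, 4 were fitted higher and 8 lower, with a median of -0.25. Without Tcf4+/- replicate 3 the median was 0.15, with 7 fitted higher and 5 lower. Col8a1 of Descemet membrane stood at 701, 1350 and 1340 CPM against 1120, 1200 and 197 CPM, and Col8a2 at 3030, 4920 and 5630 CPM against 4790, 6210 and 2300 CPM. The anchoring chains Col7a1 and Col17a1 had log2 fold changes of 0.64 and 0.81.

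Enzymes that fold, trim and cross-link procollagen showed no call. Of 20 folding and hydroxylation genes 0 passed and 1 had an unadjusted p under 0.05, with 4 fitted higher and 16 lower and a median of -0.11. Without Tcf4+/- replicate 3 the median was 0.077, with 13 fitted higher and 7 lower. P4hb, the disulfide isomerase in prolyl hydroxylase, had a log2 fold change of -0.33, and Ppib, a prolyl isomerase, -0.01. Colgalt2, a collagen galactosyltransferase, was at 40.7, 40.1 and 38.2 CPM against 49.0, 77.8 and 65.8 CPM, with no overlap and a log2 fold change of 0.70. Creb3l1, a factor that drives collagen secretion genes, had 0.99. Of 11 processing and cross-linking genes 0 passed and 1 had an unadjusted p under 0.05, with 6 fitted higher and a median of 0.12. Adamts2, which removes the amino propeptide of fibrillar procollagen, was at 39.0, 45 and 19.5 CPM against 50.6, 88.3 and 66.4 CPM, also without overlap and with a log2 fold change of 0.99. Pcolce, the enhancer of the carboxyl propeptidase, had 0.12, and the lysyl oxidases Loxl1 and Loxl4 -0.17 and 2.55, the latter from under 1.1 CPM in the Col8a2 libraries.

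Matrix partners and receptors gave the same picture. Of 15 fibril-associated matrix proteins 0 passed and 1 had an unadjusted p under 0.05, with 10 fitted higher and a median of 0.28. Dcn, the proteoglycan decorin that binds fibrils, was at 5560, 4640 and 2990 CPM against 4560, 8780 and 5140 CPM, in a library order close to that of the members. Dpt, dermatopontin, Tnxb, a tenascin, and Sparc, a collagen-binding protein, had log2 fold changes of 0.83, 0.89 and -0.32. Of 20 receptor, uptake and breakdown genes 0 passed and 2 had an unadjusted p under 0.05, with 9 fitted higher and 11 lower and a median of -0.08. Timp1, which blocks metalloproteinases, was 1 of them at -1.46, and the other was Itga2, a chain of a collagen-binding integrin, which stayed under 1.6 CPM in all libraries. Timp2 and Timp3 had -0.04 and -0.33.

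Marker lists moved as follows beside the members, with 0 genes past edgeR's test in any of the 10. Of the keratocyte list, which shares Kera, Lum, Dcn, Ogn and Dpt with the list of fibril-associated matrix proteins, 9 of 11 were fitted higher (median log2 fold change 0.28) and 2 had an unadjusted p under 0.05 (Mme at 0.90 and Dpt), while Aldh3a1, a corneal crystallin enzyme shared with the epithelium, had -0.03. The endothelium list had -0.05 with 4 of 13 fitted higher, with Car3, Gpc4 and Tjp1 at 0.15, -0.70 and 0.45, and the epithelium list -0.005 (Krt12 -0.14, Krt5 0.05, Krt14 -0.65, Krt15 0.75). The lens list had 4.15 with 12 of 12 fitted higher and 8 with an unadjusted p under 0.05 (Cryaa 3.99, Crybb2 4.24, Crybb3 4.30, and Crygd at 0 in the Col8a2 group). Outflow tissue and sclera markers had 0.93 with 4 of 4 fitted higher (Myoc 0.95, Mgp 0.91, Fmod 0.28), and their sum ran from 268 to 1290 CPM in the Col8a2 group and from 426 to 1735 CPM in the Tcf4+/- group. Vessel and mural cell markers had 0.33 with 9 of 9 fitted higher (Pecam1 1.57, Cdh5 1.43, Pdgfrb 0.33, Acta2 0.01), Schwann cell markers 0.26 (Mbp 0.09, Cdh19 0.65, Pmp22 0.17) and melanocyte markers 0.10 (Tyr -0.38, Dct 0.10, Pmel 0.45). Myeloid markers had 0.21 (C1qa 0.48, C1qb 0.21, Adgre1 -0.74, Lyz2 -0.29) and erythroid markers 1.56 with 3 of 5 at an unadjusted p under 0.05 (Hbb-bs 1.56, Hbb-bt 1.70, Hba-a1 1.35, Hba-a2 1.46). Without Tcf4+/- replicates 2 and 3 the lens median was -1.52 with 1 of 12 fitted higher, and that of outflow tissue and sclera was -0.89 with 0 of 4. The keratocyte, endothelium, epithelium and vessel medians were then -0.008, 0.03, 0.24 and 0.09. Schwann cell, melanocyte, myeloid and erythroid medians were 0.05, -0.61, -0.46 and 2.33. The part of these cells in the values of the members was not tested.

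The genes whose level across the 6 libraries was most like the mean standardised profile of the members were, among 10047 genes of at least 10 CPM, Gsn (r = 0.983), Pxylp1 (0.982), Dock9 (0.976), Rilpl1 (0.975), Hvcn1 (0.968), Dcn (0.961), Efnb1 (0.955) and Pcolce2 (0.952). Gsn, the actin-severing protein gelsolin, stood at 480, 378 and 247 CPM in the Col8a2 libraries and at 381, 752 and 345 CPM in the Tcf4+/- libraries. These genes were picked for their likeness, so the values of r are descriptions over 6 libraries.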

How the data were processed

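Titles gave the groups and replicate numbers. The kits named in the labels' protocols (RNeasy Micro, SMART-Seq HT, Nextera XT) are not described as keeping the strand, so overlapping and antisense genes cannot be told apart. FastQC 0.12.1, fastp 0.23.2, STAR, RSEM, DESeq2 and build GRCm39 are named in the submitters' processing notes, without roles, while the release of the annotation is not given in the sources used here.

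Per gene, the authors deposited expected counts with no depth scaling, of which 9.97% were fractional. The authors also deposited TPM, scaled to length and depth. Of 57180 identifiers, 51884 matched a symbol in GENCODE M21. Effective length, another deposited column, is in bases.

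Counts were rounded, filtered with filterByExpr, scaled by TMM (factors 0.974 to 1.06) and tested for the group term by edgeR's quasi-likelihood method (edgeR 4.0.16, R 4.3.3). P-values were adjusted by Benjamini-Hochberg over 17639 genes, with 0.05 as threshold. DESeq2 1.42.0 and limma 3.58.1 were alternatives, as were other scalings and filters, log2(TPM + 1) and log2(TPM + 0.1) scales, a replicate block and leaving out libraries. Ratios used TPM with exact permutation tests over libraries. Correlations used log2 CPM with a prior count of 2. The fit was tested on simulated counts. No pair of libraries agreed within sampling noise.

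The 10 members were given by name. In each of 7 pathway and 10 marker lists, the 2 genes of highest level and the 2 of smallest p were named, and the 8 genes most like the members. Some genes of the marker lists are not reported here. The members and lists were chosen with earlier results of these data known.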

Additional observations from a re-analysis of the deposited data

How the results depend on the processing

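No setting called a member. All genes called numbered 0 except 33 with DESeq2's Wald test and 4 without Col8a2 replicate 3, and 0 to 4 over the leave-one-out fits. The cause of the sign changes that follow was not tested.

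The log2 fold changes that changed sign were near 0 for Col5a1 and Col12a1 with upper-quartile scaling (0.0154 and 0.0207), for Col12a1 with a mean of at least 5 CPM (0.0027), and for Col6a3 with library size alone (-0.0082), with no filter (-0.0057) and with limma voom (-0.079). On the log2(TPM + 1) and log2(TPM + 0.1) scales, where the median of all genes moved to -0.19 and -0.21, Col1a2 was at -0.0563 and -0.0567, Col6a3 at -0.43 and -0.44, and Col14a1 at -0.0185 and -0.0194. Without Tcf4+/- replicates 2 and 3, which leaves 1 library assumed to vary like the others, Col1a2, Col5a2, Col6a1, Col6a2 and Col6a3 were at -0.35, -0.44, -0.16, -0.27 and -0.13, and Col1a1 at 0.06.

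With each library left out in turn, Col1a2 ran from -0.24 to 0.44, Col3a1 from -0.22 to 1.06, Col5a1 from -0.21 to 0.19, Col6a2 from -0.0117 to 0.76, Col6a3 from -0.35 to 0.24 and Col12a1 from -0.47 to 0.29. Without a change of sign, Col1a1 ran from 0.36 to 1.26, Col5a2 from 0.16 to 0.99, Col6a1 from 0.03 to 0.84 and Col14a1 from 0.38 to 1.17. The median of the members ran from -0.11 to 0.71. The median r of the 45 member pairs ran from 0.50 to 0.77, and was 0.54 with Spearman's rho.

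With the replicate number as a block, Col6a3 was at -0.0654 (edgeR adjusted p = 0.9998), the members' median was 0.39, and 0 genes were called, as without it. Same-numbered libraries deviated together with correlations of -0.024, 0.139 and -0.015, and the value for replicate 2 was the highest of all pairings. Not every library correlated best with its own number. The labels state no pairing, and with 3 libraries a group these correlations cannot tell whether same-numbered libraries were prepared together. With 3 libraries a group and this spread between them, a 2-fold higher level lay inside the interval of 7 of the 10 members.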

Other observations

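The effective length that the deposited tables give for a gene, which depends on the transcripts the authors' estimate assigned its reads to, differed between libraries for several members. Col6a3 had 4942, 4294 and 4729 bases in Col8a2 replicates 1 to 3, against 3926, 4433 and 8386 bases in Tcf4+/- replicates 1 to 3, so Tcf4+/- replicate 3 stands apart. The TPM of Col6a3 was 31.9 in that library against 99.8 to 177 in the others, while its CPM was 325 against 434 to 741. For Col14a1, a low gene, it was 2364, 2323 and 1953 bases against 3522, 3054 and 3754 bases. Col12a1 had 3418, 3241 and 3795 bases against 3545, 3071 and 2749 bases. For Col1a1 the range was 5630 to 5744 bases. The median of length minus effective length, over genes with an effective length over 500 bases, was 155 and 150 bases in Tcf4+/- replicates 2 and 3 against 211 to 241 bases in the other libraries, which by itself makes effective lengths longer there. These differences were not tested.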
